A study of Mus musculus with 212 samples.

Results

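Interferon-stimulated genes are the transcripts that cells switch on when interferon binds its receptor. The 37 genes described here were picked by symbol from a list of classical members, and each had to average at least 0.5 FPKM in any of 10 time courses of mouse skin fibroblasts. All 37 listed symbols met that rule, out of 47631 genes in the table. FPKM is the number of reads on a gene scaled to transcript length and to library size, so levels of different genes can be set side by side on that scale.

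The series holds 212 poly(A) RNA-seq libraries of C57BL/6 skin fibroblasts, either Bmal1-/- (lacking the clock transcription factor BMAL1) or wild type (WT), and 210 of them are used here. All cultures were grown to confluence, given 100 nM dexamethasone, a glucocorticoid that sets the phase of the clock, for 15 min, and then held in the dark in medium buffered with HEPES, with the first harvest 48 h after the dexamethasone. Each genotype has an AM and a PM course of 17 time points (CT0 to CT48, every 3 h) and courses at 27, 32 and 37 °C of 24 time points (CT0 to CT46, every 2 h), with 1 library per time point and, per the labels, 3 wells per time point and genotype. The series title asks whether circadian rhythms persist without Bmal1. The meaning of AM and PM, any pooling of wells and the number of cell preparations or animals behind each genotype are not stated in the labels. No culture received interferon or a virus according to the labels. The spread quoted below is that between the time points of a course, so the p-values measure differences between libraries and not between cell preparations. Each temperature is 1 course per genotype, and temperature therefore cannot be told apart from the culture or the sequencing run.

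Type I interferons such as interferon beta bind a receptor built from IFNAR1 and IFNAR2, which carries the kinases JAK1 and TYK2. Their activity leads to the complex ISGF3, which contains STAT2 and IRF9 and binds interferon-stimulated response elements in the promoters of its target genes. Interferon gamma acts on a different element, the gamma-activated site. Fibroblasts are a classical producer of interferon beta, and cultured cells that secrete a little of it keep part of the programme on without infection. IRF7 is both a product of the programme and a factor that amplifies interferon production. C57BL/6 mice carry a defective Mx1 allele, so an Mx1 transcript there does not stand for a working protein.

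Promoters of some members held the letters of the element that ISGF3 and the IRF proteins read. Stretches of 4 of them are printed because these 4 held the largest falls at 27 °C in WT among members with the element. The letters searched were GAAA, any 2 bases and GAAA again, on both strands, in 250 bases before to 50 bases after each start given by RefSeq on GRCm38.p6. Capitals mark each match, and a pair of TTTC is the same element on the opposite strand. Each stretch of 80 bases runs 5′ to 3′ along the strand of its gene.
Oas3, chr5:120777690-120777769, minus strand: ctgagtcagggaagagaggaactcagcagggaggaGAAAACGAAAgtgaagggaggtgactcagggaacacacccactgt
Ifit1, chr19:34640750-34640829, plus strand: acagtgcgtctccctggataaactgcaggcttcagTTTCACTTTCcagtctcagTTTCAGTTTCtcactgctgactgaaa
Oas1a, chr5:120907501-120907580, minus strand: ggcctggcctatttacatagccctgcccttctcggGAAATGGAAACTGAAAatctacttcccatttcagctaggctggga
Gbp7, chr3:142530248-142530327, plus strand: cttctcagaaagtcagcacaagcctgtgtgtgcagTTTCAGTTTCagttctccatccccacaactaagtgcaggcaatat
Oasl2, chr5:114896854-114896933, plus strand: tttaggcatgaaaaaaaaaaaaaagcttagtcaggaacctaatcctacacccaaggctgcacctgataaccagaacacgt
The Oas3 match began 75 bases upstream of the start, the Gbp7 match 53 bases, and the Ifit1 matches 104 and 85 bases. The pair in Oas1a began 20 and 14 bases upstream and shared 4 letters, so its capitals form a single run. Oasl2 is shown as a member without these letters in its window. Of the 37 members 28 had a promoter in the RefSeq table, and 17 of these 28 genes (60.7%) held the element in a promoter, against 3.99% of all 27025 genes in it (3.44% of all 32851 promoters). A shorter gamma-activated type of element, TTCNNNGAA, was in the windows of 8 of the 28, against 9.55% of all genes. These counts describe letters in a window, and no binding was measured.

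Depth was estimated from the size of the FPKM steps at low values. It lay between 9.81 and 32.08 M reads a library (median 23.23 M), and the WT AM library at CT36 was the only one under 10 M. The CT14 libraries of the 27 °C courses did not match their genotype labels and are left out. In the library labelled Bmal1-/- and in the library labelled WT, 3 of 37 members each lay nearer to the mean of its own labelled course than to that of the other genotype. Ifi44 stood at 26.4 FPKM in the library labelled Bmal1-/- and at 0.250 FPKM in the library labelled WT. Fibroblast markers were abundant throughout, and the summed level of 9 of them ran from 6804 to 22810 FPKM over the libraries. Among 7 macrophage markers, Ptprc, Adgre1, Itgam and Fcgr1 averaged under 0.1 FPKM in every course. The markers of T and NK cells summed to at most 0.181 FPKM in any library, and 4 of 5 keratinocyte markers (Krt5, Krt14, Krt1 and Epcam) also averaged under 0.1 FPKM, while the other, Krt10, averaged between 0.581 and 1.66 FPKM.

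Transcripts of the members were found in all 10 courses, at very unequal levels. In WT at 37 °C the course means ran from 3.97 FPKM for Mx1 to 439 FPKM for Bst2, with a median over the members of 32.3 FPKM, and 31 of 37 members averaged at least 10 FPKM. In Bmal1-/- at 27 °C the means ran from 0.0880 FPKM for Mx1 to 116 FPKM for Bst2, with a median of 8.62 FPKM, and 17 members averaged at least 10 FPKM. Bst2, which encodes the virus-tethering membrane protein tetherin, had the highest mean of all members in each of the 10 courses. The lowest of a member's 10 course means was in Bmal1-/- at 27 °C for 27 of the 37 members, and the highest was in WT at 37 °C for 17 of them. Such shares over all genes are not given, so these counts do not set the members apart.

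**Figure D1:**
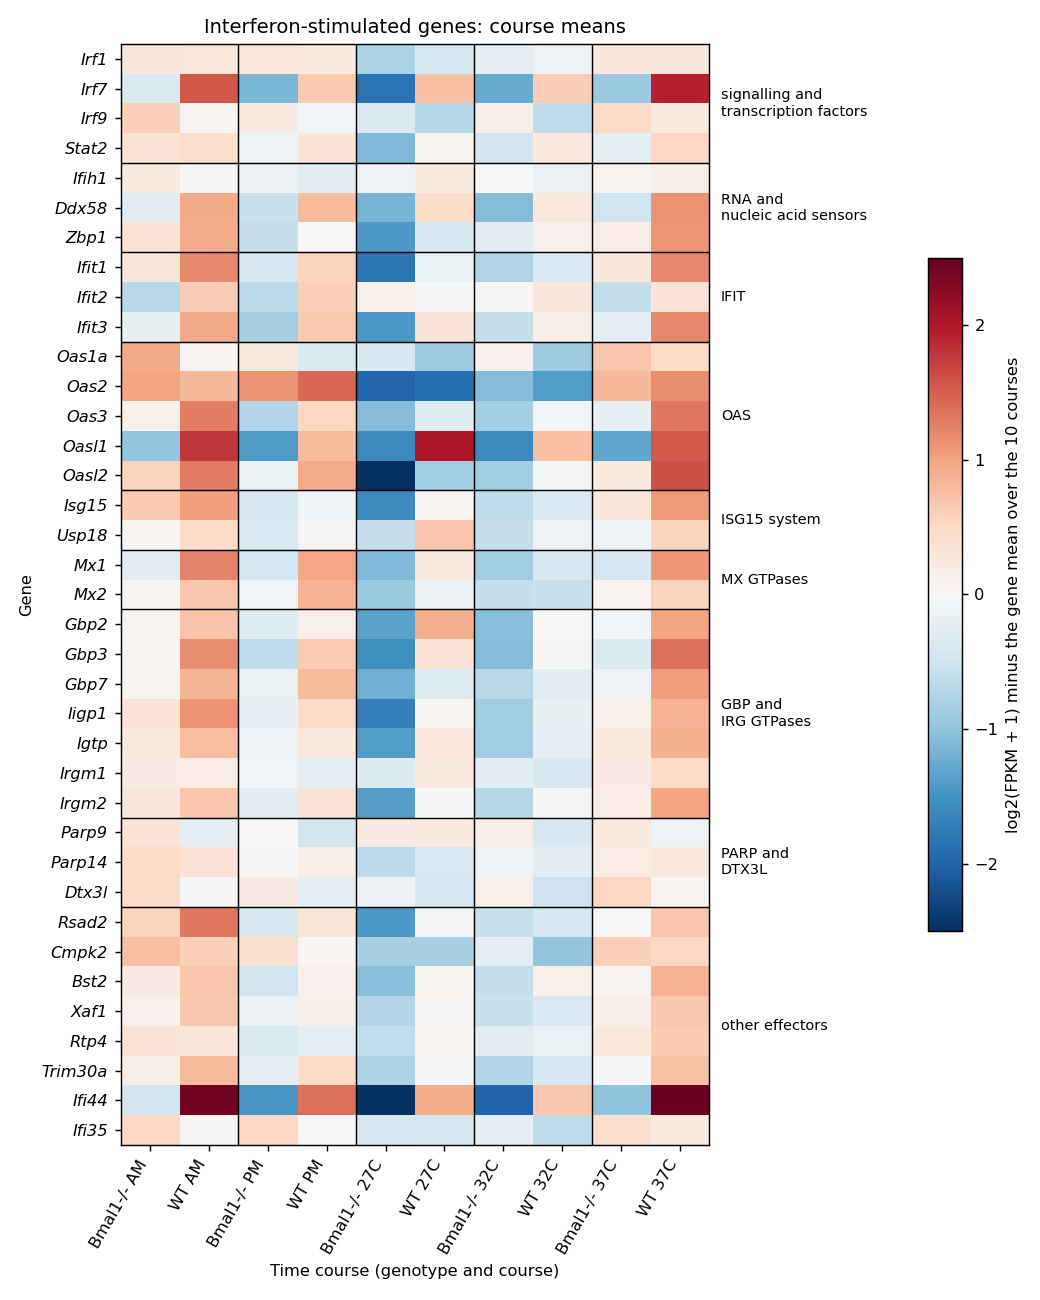
Course means of the 37 interferon-stimulated genes (rows, grouped by role) in the 10 time courses (columns, Bmal1-/- left of WT within each course), as log2(FPKM + 1) minus the mean of the gene over the 10 courses. The Bmal1-/- column at 27 °C is the bluest, with the lowest mean of 27 of the 37 genes, and the WT column at 37 °C holds the highest mean of 17. Such counts over all genes are not given.

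The comparison of genotypes asked how far the members differed between Bmal1-/- and WT in each course, with levels fitted at the middle of the course on log2(FPKM + 1). The labels do not give the number of cell preparations per genotype, so genotype cannot be told apart from cell preparation. A call needed a Benjamini-Hochberg adjusted p under 0.05 in limma together with a 2-fold difference or more. Called lower in Bmal1-/- were 9 members in AM, 11 in PM, 19 at 27 °C, 5 at 32 °C and 11 at 37 °C. Of all genes tested, 7.78%, 8.23%, 7.08%, 7.59% and 7.69% were called lower in those courses. No member was called higher in AM, PM, at 27 °C or at 37 °C, where 6.86%, 7.35%, 6.38% and 6.22% of all genes were, and 1 was at 32 °C, where 6.96% of all genes were. The median log2 difference of the 37 members was -0.57 in AM, -0.55 in PM, -1.03 at 27 °C, -0.35 at 32 °C and -0.75 at 37 °C, while the median of all genes tested lay between -0.02 and 0.02. In bulk RNA, fewer cells with the programme on and less RNA per cell cannot be told apart.

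Ifi44, Oasl1 and Irf7 led the difference in each course, and with Ddx58 and Gbp3 they were the 5 members called lower in all 5 courses. Another 15 members were called lower in none, and 24 of the 37 had a difference below 0 in all 5. The 5 comparisons set the same genotypes against each other, so these counts are not independent. The share of all genes that recurs over the 5 courses is not given, so the counts do not set the members apart.

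**Figure D2:**
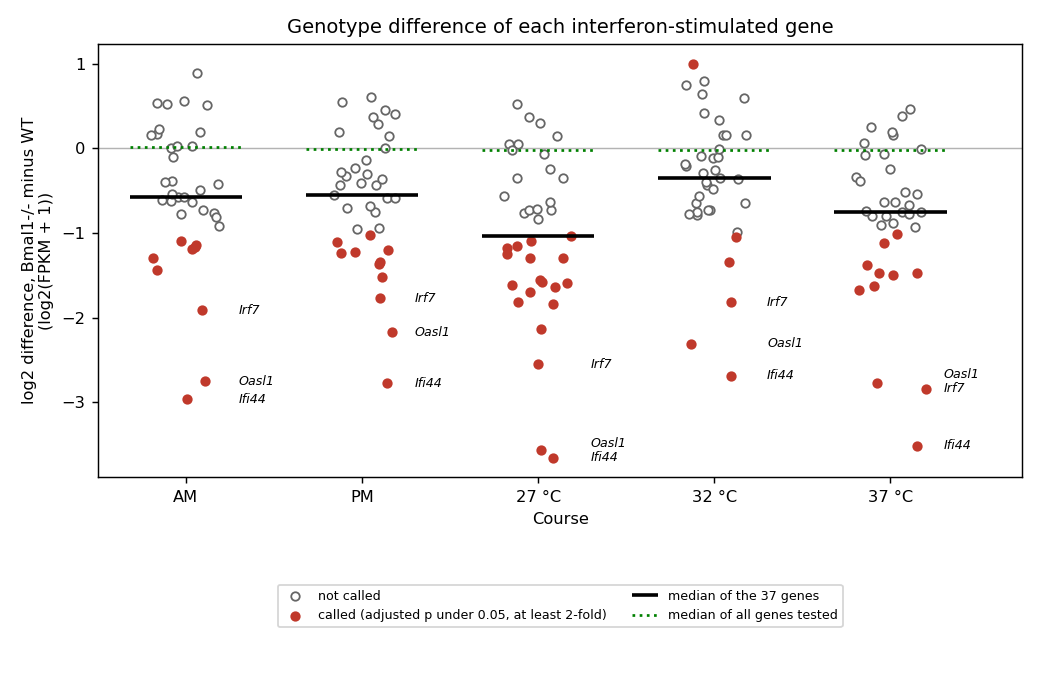
Log2 difference between Bmal1-/- and WT (vertical axis, log2(FPKM + 1) scale) of each of the 37 genes in the 5 courses, with filled points for called genes, a bar at the median of the 37 and a dotted line at the median of all genes tested. Ifi44, Oasl1 and Irf7 lie lowest in each course, and the median bar is lowest at 27 °C (-1.03) and highest at 32 °C (-0.35).

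Among the signalling factors, Irf7 (ENSMUSG00000025498, chr7:141262706-141266481) separated the genotypes fully. In AM its lowest, median and highest levels were 15.5, 34.3 and 46.6 FPKM in Bmal1-/- against 87.8, 124 and 198 FPKM in WT, and at 37 °C they were 12.2, 22.2 and 39.1 FPKM in Bmal1-/- against 78.5, 168 and 273 FPKM in WT. No Bmal1-/- library reached the lowest WT library in either course, nor in PM, at 27 °C or at 32 °C. The log2 difference was -1.91 ± 0.10 (SE) in AM, with an adjusted p of 1.94e-24 in limma, -1.77 ± 0.10 in PM (6.79e-23), -2.55 ± 0.06 at 27 °C (9.48e-73), -1.82 ± 0.06 at 32 °C (5.82e-58) and -2.84 ± 0.06 at 37 °C (2.75e-79). It was lower in Bmal1-/- at every matched time point of the 5 courses. The other factors behaved differently. Stat2, a subunit of ISGF3, was called lower only at 27 °C (log2 difference -1.15), and Irf9, the subunit that binds DNA, had differences above 0 in all 5 courses, between 0.26 and 0.80, with no call. Irf1, a factor induced by interferon gamma, had differences between -0.35 and 0.03.

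Of the sensors of foreign nucleic acid, Ddx58, which encodes the RNA helicase RIG-I, was called in every course, and Ifih1, which encodes its relative MDA5, in none. Ddx58 at 32 °C had a lowest, median and highest level of 13.5, 16.3 and 20.5 FPKM in Bmal1-/- and 33.5, 44.3 and 55.2 FPKM in WT. The ranges did not overlap, and the log2 difference there was -1.34 ± 0.03 (SE; adjusted p = 5.48e-69, limma), lower at 24 of 24 time points. Its differences were -1.19 in AM, -1.35 in PM, -1.62 at 27 °C and -1.63 at 37 °C. Those of Ifih1 lay between -0.35 and 0.23. Zbp1, which encodes a sensor of Z-form nucleic acids, was called at 27 °C (-1.03).

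The IFIT proteins bind viral RNA and lie in a cluster on chromosome 19. Ifit3 in PM had a lowest, median and highest level of 31.0, 50.1 and 97.2 FPKM in Bmal1-/- and 100.5, 139 and 271 FPKM in WT. The ranges just missed each other, with a log2 difference of -1.52 ± 0.13 (SE; adjusted p = 1.79e-15, limma), and Ifit3 was also called in AM, at 27 °C and at 37 °C. Ifit1 was called in PM (-1.03) and at 27 °C (-1.55). Ifit2 differed between courses. Its log2 differences were -1.29 in AM and -1.24 in PM, where it was called, but -0.90 at 37 °C, -0.26 at 32 °C and 0.15 at 27 °C, where it was not.

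The OAS genes on chromosome 5 encode enzymes that make the 2′-5′ oligoadenylates that activate RNase L, and the related OASL proteins. Oasl1 (ENSMUSG00000041827, chr5:114923240-114937915), which in mice represses translation of Irf7 mRNA, was low in Bmal1-/-. In AM its lowest, median and highest levels were 0.466, 0.955 and 1.73 FPKM in Bmal1-/- against 8.13, 12.2 and 22.01 FPKM in WT, and at 27 °C they were 0.0448, 0.304 and 0.945 FPKM in Bmal1-/- against 8.87, 13.95 and 28.3 FPKM in WT. The genotypes did not overlap in any course. The log2 difference was -2.75 ± 0.10 (SE) in AM, with an adjusted p of 3.33e-33 in limma, -2.17 ± 0.10 in PM (3.02e-28), -3.56 ± 0.07 at 27 °C (2.03e-85), -2.31 ± 0.06 at 32 °C (1.02e-65) and -2.77 ± 0.06 at 37 °C (2.04e-74). On the linear scale the mean in Bmal1-/- was 0.0802 of the WT mean in AM and 0.0220 of it at 27 °C, since adding 1 FPKM before the logarithm understates the change of low genes.

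Other genes of the family gave different values. Oas1a was the member called higher, at 32 °C, where its lowest, median and highest levels were 2.33, 3.85 and 6.36 FPKM in Bmal1-/- and 0.816, 1.42 and 2.61 FPKM in WT. The ranges overlapped slightly and the log2 difference was 1.00 ± 0.05 (SE; adjusted p = 4.13e-38, limma), higher at 24 of 24 time points, at the very edge of the 2-fold limit and under it on the second day alone (0.97). In the other courses it lay between 0.19 and 0.89. Oas2 was called in no course (-0.34 to 0.33). Oas3 was called lower in AM, in PM and at 37 °C, and Oasl2 in PM, at 27 °C and at 37 °C. At 27 °C Oas3 averaged 0.263 FPKM in Bmal1-/-, while no member averaged under 0.847 FPKM in WT. The added 1 FPKM understates such a difference, so the missing call there does not show one under 2-fold on the linear scale. Oas1a belongs to a family of near-identical copies, among which counting may have divided the reads, and the same holds for Ifit3, the Gbp genes and Trim30a.

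Of the other antiviral effectors, Ifi44 (ENSMUSG00000028037, chr3:151730922-151749960), which encodes an interferon-induced protein with a GTP-binding fold, had the largest difference of all members in each course. In AM its lowest, median and highest levels were 1.52, 7.02 and 10.5 FPKM in Bmal1-/- against 33.8, 52.5 and 73.4 FPKM in WT, and at 27 °C they were 0.0200, 0.244 and 1.36 FPKM in Bmal1-/- against 6.43, 17.3 and 43.5 FPKM in WT. The genotypes did not overlap in any of the 5 courses. The log2 difference was -2.96 ± 0.15 (SE) in AM, with an adjusted p of 2.70e-26 in limma, -2.78 ± 0.15 in PM (5.72e-25), -3.65 ± 0.10 at 27 °C (5.88e-65), -2.68 ± 0.10 at 32 °C (5.05e-52) and -3.51 ± 0.10 at 37 °C (2.57e-64). Rsad2, which encodes the radical enzyme viperin, and Bst2 were each called lower at 27 °C, with log2 differences of -1.29 and -1.09. Cmpk2, the mitochondrial nucleotide kinase gene beside Rsad2, and Ifi35 had differences above 0 in all 5 courses, with no call. Xaf1, Rtp4 and Trim30a had no call.

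The interferon-inducible GTPases coat the vacuoles of intracellular pathogens. Of the 7 genes of the GBP and IRG families, 5 were called lower at 27 °C, 3 at 37 °C and 1 in each other course. Gbp2 at 27 °C had a lowest, median and highest level of 3.71, 5.24 and 9.28 FPKM in Bmal1-/- and 12.4, 27.9 and 64.3 FPKM in WT. The ranges did not overlap, and the log2 difference was -2.13 ± 0.05 (SE; adjusted p = 1.55e-71, limma). Gbp3 at 37 °C had 15.1, 22.1 and 34.2 FPKM in Bmal1-/- and 40.7, 77.0 and 122 FPKM in WT as its lowest, median and highest levels. It too did not overlap between the genotypes there (-1.68 ± 0.06, adjusted p = 5.00e-53, limma). Igtp and Irgm2 overlap on the same strand of chromosome 11, so reads in the shared bases cannot be assigned to either.

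Mx1, a dynamin-like GTPase gene, was called in AM, in PM, at 27 °C and at 37 °C. In AM its lowest, median and highest levels were 0.451, 0.869 and 2.02 FPKM in Bmal1-/- and 2.19, 3.80 and 9.44 FPKM in WT, without overlap (log2 difference -1.44 ± 0.11, adjusted p = 1.74e-17, limma). Mx2 was called in no course. Isg15, a ubiquitin-like protein that is attached to other proteins, and Usp18, the protease that removes it and also restrains the interferon receptor, were called lower at 27 °C (-1.58 and -1.24) and in no other course. Parp9, Parp14 and Dtx3l, whose products modify proteins with ADP-ribose and ubiquitin, were called in no course, with differences between -0.25 and 0.65.

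Lyz2, a lysozyme gene used as a macrophage marker, had a median of 0.890 FPKM in Bmal1-/- AM against 3.87 FPKM in WT AM, and 0.521 FPKM in Bmal1-/- at 37 °C against 5.10 FPKM in WT at 37 °C. The summed level of the 7 macrophage markers ran from 1.61 to 3.64 FPKM in Bmal1-/- AM and from 4.09 to 7.16 FPKM in WT AM, and from 1.17 to 3.08 FPKM in Bmal1-/- and from 6.43 to 10.03 FPKM in WT at 37 °C. In PM and at 32 °C the sums of the genotypes did not overlap either. At 27 °C they did, from 18.04 to 41.5 FPKM in Bmal1-/- and from 24.9 to 41.4 FPKM in WT. Lyz2 alone was still lower in Bmal1-/- at 27 °C, at 23 of 23 time points and without overlap. Its mean there was 0.217 of the WT mean, with a log2 difference of -0.92 and no call. Cd68 on the same list had a log2 difference of -0.20 at 27 °C and was called lower at 32 °C (-1.83). Single markers of other cell types moved with genotype too. Kdr, an endothelial receptor gene, averaged 0.287 FPKM in Bmal1-/- AM against 3.54 FPKM in WT AM and was called lower in AM (-1.80) and PM (-1.68), but it averaged 0.546 FPKM in Bmal1-/- at 27 °C against 0.189 FPKM in WT at 27 °C. Tek on the same endothelial list was called in no course, with log2 differences between -0.27 (37 °C) and 0.04 (PM). Krt10 averaged 0.903 FPKM in Bmal1-/- PM against 1.66 FPKM in WT PM, without overlap and under 2-fold. The fibroblast markers went both ways. Pdgfra, a growth factor receptor gene, was called lower in Bmal1-/- in all 5 courses (-2.04 to -1.07), Lum and Pdgfrb in 4 each and Thy1 at 37 °C, while Dcn was called higher in PM (1.25) and Vim had differences between 0.50 and 0.72. The part of these cell types in the genotype difference of the members was not tested. With the CT14 libraries included by their labels, 17 members were called lower at 27 °C.

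Transcripts of interferon beta itself also differed between the genotypes. Ifnb1 (chr4:88522025-88522774, GRCm38) was above 0 in 3 of 105 Bmal1-/- libraries and in 90 of 105 WT libraries. The 3 Bmal1-/- values were at most 0.0790 FPKM and amounted to an estimated 1.2 or 1.3 reads each, that is, about 1 read. In WT the median estimate was 2.5 reads a library in AM, 5 in PM, 3.7 at 27 °C, 3.7 at 32 °C and 2.4 at 37 °C, so single WT values are imprecise and a listed 0 is not proof of absence. The Bmal1-/- mean was 0 FPKM in AM against 0.200 ± 0.133 FPKM in WT AM (SD, n = 17), and 0.00465 FPKM in PM against 0.357 ± 0.198 FPKM in WT PM. At 27 °C the Bmal1-/- mean was 0 FPKM against 0.226 ± 0.131 FPKM in WT, at 32 °C 0.00243 against 0.196 ± 0.154 FPKM, and at 37 °C 0.00287 against 0.171 ± 0.176 FPKM. A two-sided permutation test of the means with 100000 resamples gave p = 2e-05 in each of the 5 courses, the smallest value it can give, and 2e-05 after Benjamini-Hochberg adjustment over the 5. The library labelled Bmal1-/- CT14 at 27 °C held 0.317 FPKM, and the one labelled WT was listed at 0. The part of Ifnb1 in the genotype difference of the members was not tested.

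**Figure D3:**
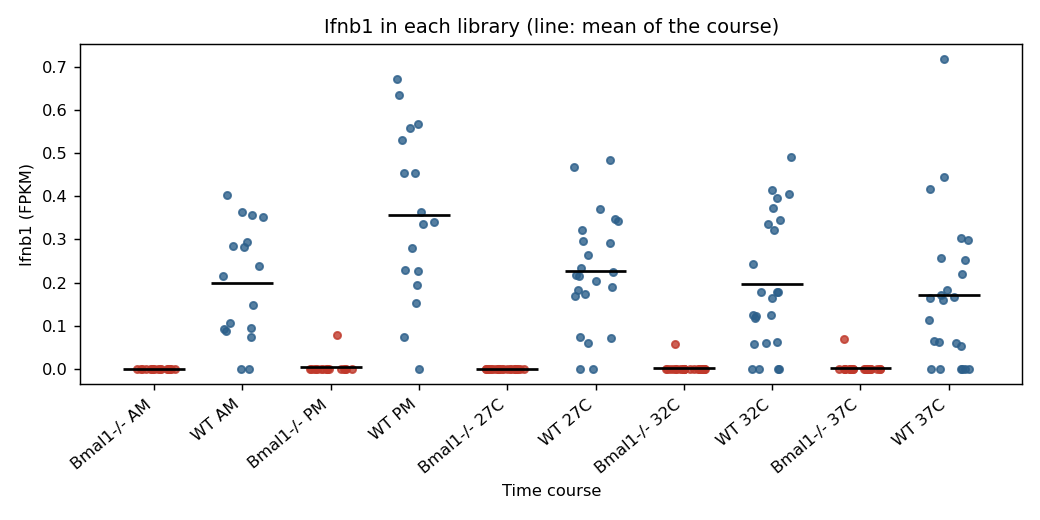
Ifnb1 (FPKM, vertical axis) in each library of the 10 courses, with Bmal1-/- left of WT for each course and a line at the course mean. The Bmal1-/- points lie on 0 except for 3 libraries, whereas 90 of 105 WT points lie above 0, up to 0.718 FPKM.

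Of the other 9 ligand genes listed, Ifna1, Ifna2, Ifnl2 and Ifnl3 were at 0 in every library used. Ifna4, Ifna5, Ifnk and Ifng never passed 0.477 FPKM. Ifne, an interferon of epithelia, was above 0 in 16 of 24 Bmal1-/- libraries at 32 °C against 6 of 24 WT libraries, and in 13 of 23 Bmal1-/- libraries at 27 °C against 4 of 23 WT libraries, with no value above 0.455 FPKM. The receptor genes were read in every course. Ifnar1 averaged 45.4 ± 4.95 FPKM in Bmal1-/- AM against 29.6 ± 3.32 FPKM in WT AM, and 32.5 ± 3.33 FPKM in Bmal1-/- at 37 °C against 22.04 ± 3.08 FPKM in WT at 37 °C, differences under 2-fold. Among the 28 other pathway genes tested, Jak1, the kinase gene of the receptor, was called lower in Bmal1-/- at 27 °C (log2 difference -1.14 ± 0.02, adjusted p = 6.47e-77, limma) and at 32 °C (-1.03). No other pathway gene was called between genotypes in any course.

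The comparison of temperatures asked how the programme stood in the cooler courses relative to 37 °C. At 27 °C against 37 °C, 18 members were called lower in Bmal1-/- and 13 in WT, beside 4.04% and 5.21% of all genes. At 32 °C against 37 °C, 4 were called lower in Bmal1-/- and 20 in WT, beside 0.944% and 1.37% of all genes. No member was called higher in these 4 comparisons, where 7.64%, 8.38%, 1.77% and 1.93% of all genes were. Both cooler courses of a genotype are set against the same 37 °C libraries, so their counts are not independent of each other. The median of all genes tested was shifted upward, by 0.21 in both genotypes at 27 °C and by 0.13 in both at 32 °C, so the fall of the members relative to other genes is larger than the raw differences. The median log2 difference of the members was -0.98 in Bmal1-/- and -0.78 in WT at 27 °C, and -0.58 in Bmal1-/- and -1.05 in WT at 32 °C. With libraries scaled by the median of ratios, which takes out that shift, 26 members were called lower in Bmal1-/- and 18 in WT at 27 °C, and 9 in Bmal1-/- and 26 in WT at 32 °C. That scaling lowers the differences of all genes, and the share of all genes then called lower is not given. The larger counts are therefore not read as a larger fall of the members. With the CT14 libraries included by their labels, 18 were called lower in Bmal1-/- and 15 in WT at 27 °C.

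Oas2 (ENSMUSG00000032690, chr5:120730333-120749853), an oligoadenylate synthetase gene, was among the members with the largest temperature differences in both genotypes. In Bmal1-/- its lowest, median and highest levels were 0.294, 0.727 and 1.27 FPKM at 27 °C, 1.13, 2.18 and 3.11 FPKM at 32 °C and 6.74, 10.6 and 17.4 FPKM at 37 °C. In WT they were 0.272, 0.723 and 2.12 FPKM at 27 °C, 0.781, 1.52 and 2.93 FPKM at 32 °C and 7.75, 12.4 and 24.3 FPKM at 37 °C. Neither genotype had a library at 27 or 32 °C that reached its lowest library at 37 °C. Against 37 °C the log2 difference in Bmal1-/- was -2.77 ± 0.06 (SE) at 27 °C, with an adjusted p of 2.63e-77 in limma, and -1.88 ± 0.06 at 32 °C (1.24e-58). In WT it was -3.04 ± 0.06 at 27 °C (5.84e-82) and -2.55 ± 0.06 at 32 °C (6.43e-73).

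Oasl2 (ENSMUSG00000029561, chr5:114896936-114912234), whose protein carries ubiquitin-like domains, was also among the 3 members with the largest falls in each of the 4 comparisons. In Bmal1-/- it had a lowest, median and highest level of 4.35, 7.07 and 14.7 FPKM at 27 °C, 17.1, 29.8 and 48.1 FPKM at 32 °C and 39.9, 61.9 and 102 FPKM at 37 °C. The ranges at 27 and 37 °C did not overlap, and those at 32 and 37 °C did. In WT it had 17.02, 26.5 and 60.4 FPKM at 27 °C, 30.2, 50.5 and 89.0 FPKM at 32 °C and 95.5, 160 and 257 FPKM at 37 °C. In WT neither cooler course overlapped with 37 °C. The log2 difference from 37 °C at 27 °C was -2.98 ± 0.06 in Bmal1-/- (adjusted p = 1.19e-77, limma) and -2.51 ± 0.06 in WT (1.18e-69).

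Beside Oas2 and Oasl2, the 4 largest falls at 27 °C included Ifit1 (-2.11 ± 0.08) and Isg15 (-1.91 ± 0.07) in Bmal1-/- and Ifi44 (-1.65 ± 0.10) and Oas3 (-1.62 ± 0.05) in WT. At 32 °C they included Igtp (-1.10 ± 0.05) and Ifit1 (-1.03 ± 0.08) in Bmal1-/- and Ifi44 (-1.78 ± 0.10) and Ifit1 (-1.61 ± 0.08) in WT. Each was lower at all matched time points, with adjusted p between 1.76e-60 and 3.39e-23 in limma. By family, 6 of 7 GBP and IRG genes and 3 of 5 OAS genes were called lower at 27 °C in Bmal1-/-, and 3 of 7 and 4 of 5 in WT. None of Parp9, Parp14 and Dtx3l was called in either genotype at either temperature. Ifit2 was higher in the cooler Bmal1-/- courses, with log2 differences of 0.70 at 27 °C and 0.61 at 32 °C that stayed under 2-fold, against -0.34 and -0.04 in WT.

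The cooler courses were also set against each other. At 27 °C against 32 °C, 4 members were called lower in Bmal1-/-, namely Oasl2 (-1.88), Zbp1 (-1.22), Ifit1 (-1.08) and Isg15 (-1.02), beside 1.9% of all genes, and none was called higher, beside 1.43%. In WT none was called lower, beside 2.75% of all genes, and Oasl1 was called higher (1.24 ± 0.06, adjusted p = 1.13e-37, limma), beside 1.61% of all genes. At an unadjusted p under 0.05 in limma, in either direction, were 29 of 37 members in WT and 23 of the 28 other pathway genes. Oasl1 in WT had a lowest, median and highest level of 8.87, 13.95 and 28.3 FPKM at 27 °C and 2.36, 5.78 and 9.57 FPKM at 32 °C. The ranges overlapped only at their ends, and the 27 °C library was higher at 23 of 23 time points. This pair of comparisons was added after values had been seen.

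The difference between the genotypes' temperature responses was itself tested. For 27 °C against 37 °C, the response of Ifit2 was higher in Bmal1-/- than in WT by 1.05 ± 0.05 (SE; adjusted p = 2.08e-42, limma) and that of Gbp2 was lower, with a difference of -1.12 ± 0.07 (2.98e-29). Beside these, 2.74% of all genes were called higher and 1.67% lower. For 32 °C against 37 °C, the responses of Mx1 (1.04 ± 0.10, adjusted p = 3.59e-17, limma) and Irf7 (1.03 ± 0.08, 1.48e-21) were higher, that is, less of a fall in Bmal1-/-, beside 0.798% of all genes. None was called lower, beside 0.691% of all genes. At an unadjusted p under 0.05 in limma, in either direction, were 32 of 37 members and 22 of the 28 other pathway genes. The median of this second difference over the 37 members was 0.46, and 36 of 37 were above 0. For 27 °C the median was -0.22, with 27 of 37 below 0. Over all genes tested the medians were 0.002 for 32 °C and -0.005 for 27 °C. The share of all genes on either side of 0 is not given.

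Among the other pathway genes reported here, Socs1, which encodes an inhibitor of the JAK kinases, was called lower in all 4 comparisons (-1.39 and -1.04 in Bmal1-/- at 27 and 32 °C, -1.72 and -1.05 in WT). Dhx58, which encodes the helicase LGP2, was called lower at 27 °C in both genotypes and at 32 °C in WT. Tlr3, a receptor gene for double-stranded RNA, was called lower in WT at 27 °C (-1.10), and Tlr4 higher in WT at 32 °C (1.03). No interferon receptor gene was called in these 4 comparisons.

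Beside the courses at 27 °C, Cd68, a lysosomal gene used as a macrophage marker, was higher in the cooler courses. It averaged 26.8 FPKM at 27 °C, 1.98 FPKM at 32 °C and 1.09 FPKM at 37 °C in Bmal1-/-, and 30.6, 9.61 and 2.65 FPKM in WT. Lyz2 on the same list was not, with log2 differences of 27 °C from 37 °C of -0.21 in Bmal1-/- and -1.23 in WT, where it was called lower. The summed level of the 7 macrophage markers ran from 18.04 to 41.5 FPKM at 27 °C and from 1.17 to 3.08 FPKM at 37 °C in Bmal1-/-, and from 24.9 to 41.4 FPKM and from 6.43 to 10.03 FPKM in WT. Ptprc, Adgre1, Itgam and Fcgr1 averaged under 0.1 FPKM at 27 °C too. The sum of the 9 fibroblast markers was lower at 27 °C than at 37 °C, from 8501 to 10894 FPKM at 27 °C and from 12262 to 18686 FPKM at 37 °C in Bmal1-/-, and from 6804 to 8228 and from 11111 to 13876 FPKM in WT. Of the single fibroblast markers, Lum was called lower in both genotypes (-2.79 in Bmal1-/- and -1.05 in WT). Dcn was called lower in Bmal1-/- (-1.34), and Col1a1 (-1.31) and Pdgfra (-1.10) in WT. Col3a1 and Col1a2 were below 0 in both genotypes with no call. Thy1 (0.67 in Bmal1-/- and 0.43 in WT), Vim (0.54 and 0.38) and Pdgfrb (0.19 and 0.27) were above 0 with no call. No fibroblast marker was called higher. The part of these shifts in the fall of the members was not tested.

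Few members were called between PM and AM. In Bmal1-/-, Isg15 and Rsad2 were called lower in PM than in AM, beside 0.646% of all genes, and in WT Isg15, Ifi44, Rsad2 and Oasl1, beside 0.774% of all genes. None was called higher in limma, where 0.519% of all genes in Bmal1-/- and 1.61% in WT were. At an unadjusted p under 0.05 in limma, in either direction, were 31 members in each genotype. Of the 28 other pathway genes, 22 in Bmal1-/- and 17 in WT were. Isg15 had a lowest, median and highest level of 21.9, 37.8 and 98.2 FPKM in Bmal1-/- PM against 44.9, 91.7 and 145 FPKM in Bmal1-/- AM, and of 25.6, 49.9 and 115 FPKM in WT PM against 76.5, 115 and 183 FPKM in WT AM. PM and AM overlapped in both genotypes, and the log2 difference was -1.08 ± 0.13 in Bmal1-/- (adjusted p = 1.73e-10, limma) and -1.19 ± 0.13 in WT (7.07e-12). Rsad2 differed by -1.01 ± 0.15 in Bmal1-/- and -1.04 ± 0.15 in WT, Ifi44 by -1.14 ± 0.15 and Oasl1 by -1.01 ± 0.10 in WT. Several of these sit at the 2-fold limit. Without the WT AM library at CT36, the shallowest, 2 members rather than 4 were called in WT, and on the first day alone none was, with Isg15 at -0.96. The median log2 difference of the members was -0.43 in Bmal1-/- and -0.41 in WT, while that of all genes was 0.08 in both.

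Within the courses most members drifted downward with time. A fitted change over 45 h was called when it reached 1.5-fold with an adjusted p under 0.05. In Bmal1-/- 12 members fell in AM, 7 in PM, 15 at 27 °C, 12 at 32 °C and 12 at 37 °C, beside 0.564%, 0.428%, 2.17%, 0.706% and 1.97% of all genes. In WT 13 fell in AM, 25 in PM, 32 at 27 °C, 30 at 32 °C and 30 at 37 °C, beside 1.55%, 1.96%, 4.44%, 2.82% and 3.13% of all genes. No member rose in any of the 10 courses in limma. Of all genes, 0.541%, 0.323%, 1.14%, 0.859% and 1.66% rose in Bmal1-/- in AM, in PM and at 27, 32 and 37 °C, and 1.15%, 1.41%, 2.1%, 2.46% and 1.41% in WT. The number of members with an unadjusted p under 0.05 for the trend ran from 19 in Bmal1-/- PM to 37 in WT at 27 and 32 °C. Of the 28 other pathway genes, 9 in Bmal1-/- PM, 16 in WT at 27 °C and 17 in WT at 32 °C were under it. With the CT14 libraries included by their labels, 16 members fell in Bmal1-/- and 28 in WT at 27 °C. The median change over 45 h was -0.56, -0.37, -0.38, -0.43 and -0.50 in Bmal1-/- in AM, in PM and at 27, 32 and 37 °C, and -0.56, -0.76, -1.18, -0.83 and -0.87 in WT, with the median of all genes between -0.03 and 0.02.

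**Figure D4:**
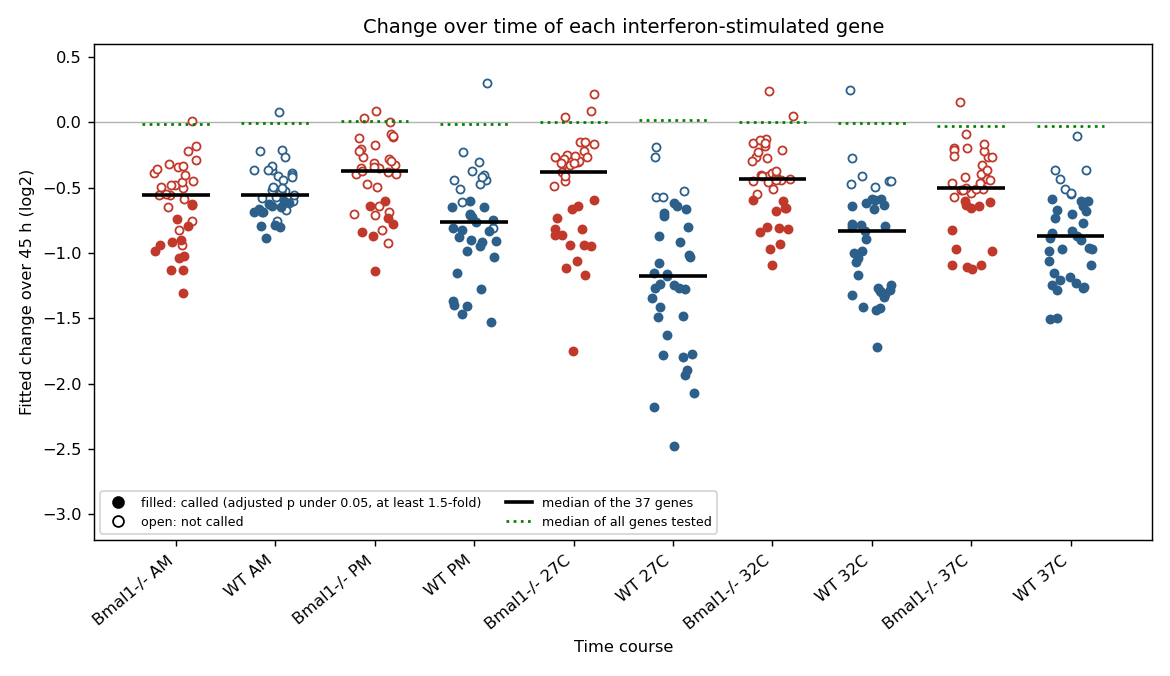
Fitted change over 45 h (log2, vertical axis) of each of the 37 genes in the 10 courses, with filled points for called genes, a bar at the median of the 37 and a dotted line at the median of all genes tested. Most points lie below 0, and the medians of the 3 WT temperature courses (-1.18, -0.83 and -0.87) lie lower than those of the Bmal1-/- temperature courses (-0.38, -0.43 and -0.50).

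The decline in WT was plain in single genes. At 27 °C in WT, Gbp2 averaged 19.8 ± 6.29 FPKM on the second day against 43.2 ± 12.8 FPKM on the first day, and Isg15 averaged 34.6 ± 9.62 FPKM against 92.2 ± 33.9 FPKM (SD over 12 and 11 time points). Their changes over 45 h were -1.94 ± 0.13 (SE; adjusted p = 1.37e-25, limma) and -2.48 ± 0.18 (8.00e-23). Ifi35 changed by -1.03 ± 0.08 (1.78e-20). At 32 °C in WT the smallest p belonged to Irgm2 (-1.29 ± 0.10), Irgm1 (-1.24 ± 0.11) and Gbp3 (-1.72 ± 0.15), and at 37 °C to Zbp1 (-1.5 ± 0.15), Gbp2 (-1.25 ± 0.13) and Irgm1 (-1.06 ± 0.11), all with an adjusted p of at most 9.36e-15 in limma. All 7 GBP and IRG genes and all 5 OAS genes fell in each WT temperature course and in WT PM.

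In the shorter WT courses, Zbp1 averaged 10.5 ± 1.89 FPKM on the second day against 21.2 ± 5.90 FPKM on the first day in PM, with a change of -1.53 ± 0.22 (adjusted p = 6.17e-07, limma). Gbp3 (-1.40 ± 0.22) and Irf7 (-1.36 ± 0.24) followed in PM. In WT AM the changes were smaller, with Gbp2 at -0.80 ± 0.14, Irgm2 at -0.68 ± 0.17 and Bst2 at -0.60 ± 0.16. The calls in WT AM, WT PM and Bmal1-/- PM depended on the earliest libraries. Without CT0 to CT6, a choice made after seeing the data, 1 member fell in WT AM, 5 in WT PM and 0 in Bmal1-/- PM, whereas 28, 26 and 27 fell in WT at 27, 32 and 37 °C and 13 in Bmal1-/- AM. The median change over 45 h of the members was then -0.33 in WT AM, -0.57 in WT PM and -0.22 in Bmal1-/- PM, from fewer libraries.

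In Bmal1-/- the genes that fell were fewer and partly others led. Zbp1 and Oas1a fell in all 10 courses, and Irf7, Bst2 and Xaf1 in 9. Bst2 averaged 201 ± 23.4 FPKM on the second day against 314 ± 33.2 FPKM on the first day in Bmal1-/- at 37 °C, a change of -1.09 ± 0.11 (adjusted p = 8.65e-15, limma). Oas1a (-1.10 ± 0.13) and Zbp1 (-1.12 ± 0.15) fell there too. At 27 °C Isg15 averaged 13.04 ± 3.40 FPKM on the second day against 24.9 ± 7.60 FPKM on the first day in Bmal1-/- (-1.75 ± 0.18, adjusted p = 6.05e-14, limma). At 32 °C the leading genes were Oas1a (-0.80 ± 0.13), Xaf1 (-0.81 ± 0.13), a gene of apoptosis control, and Rtp4 (-0.66 ± 0.11). In AM they were Bst2 (-0.94 ± 0.16), Oas1a (-0.92 ± 0.19) and Zbp1 (-1.04 ± 0.22), and in PM Oas2 (-1.14 ± 0.24), Bst2 (-0.64 ± 0.16) and Zbp1 (-0.87 ± 0.22). Irf1 and Ifit2 fell in no course of either genotype. Ifit2 had a fitted change above 0 in 7 of the 10 courses.

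**Figure D5:**
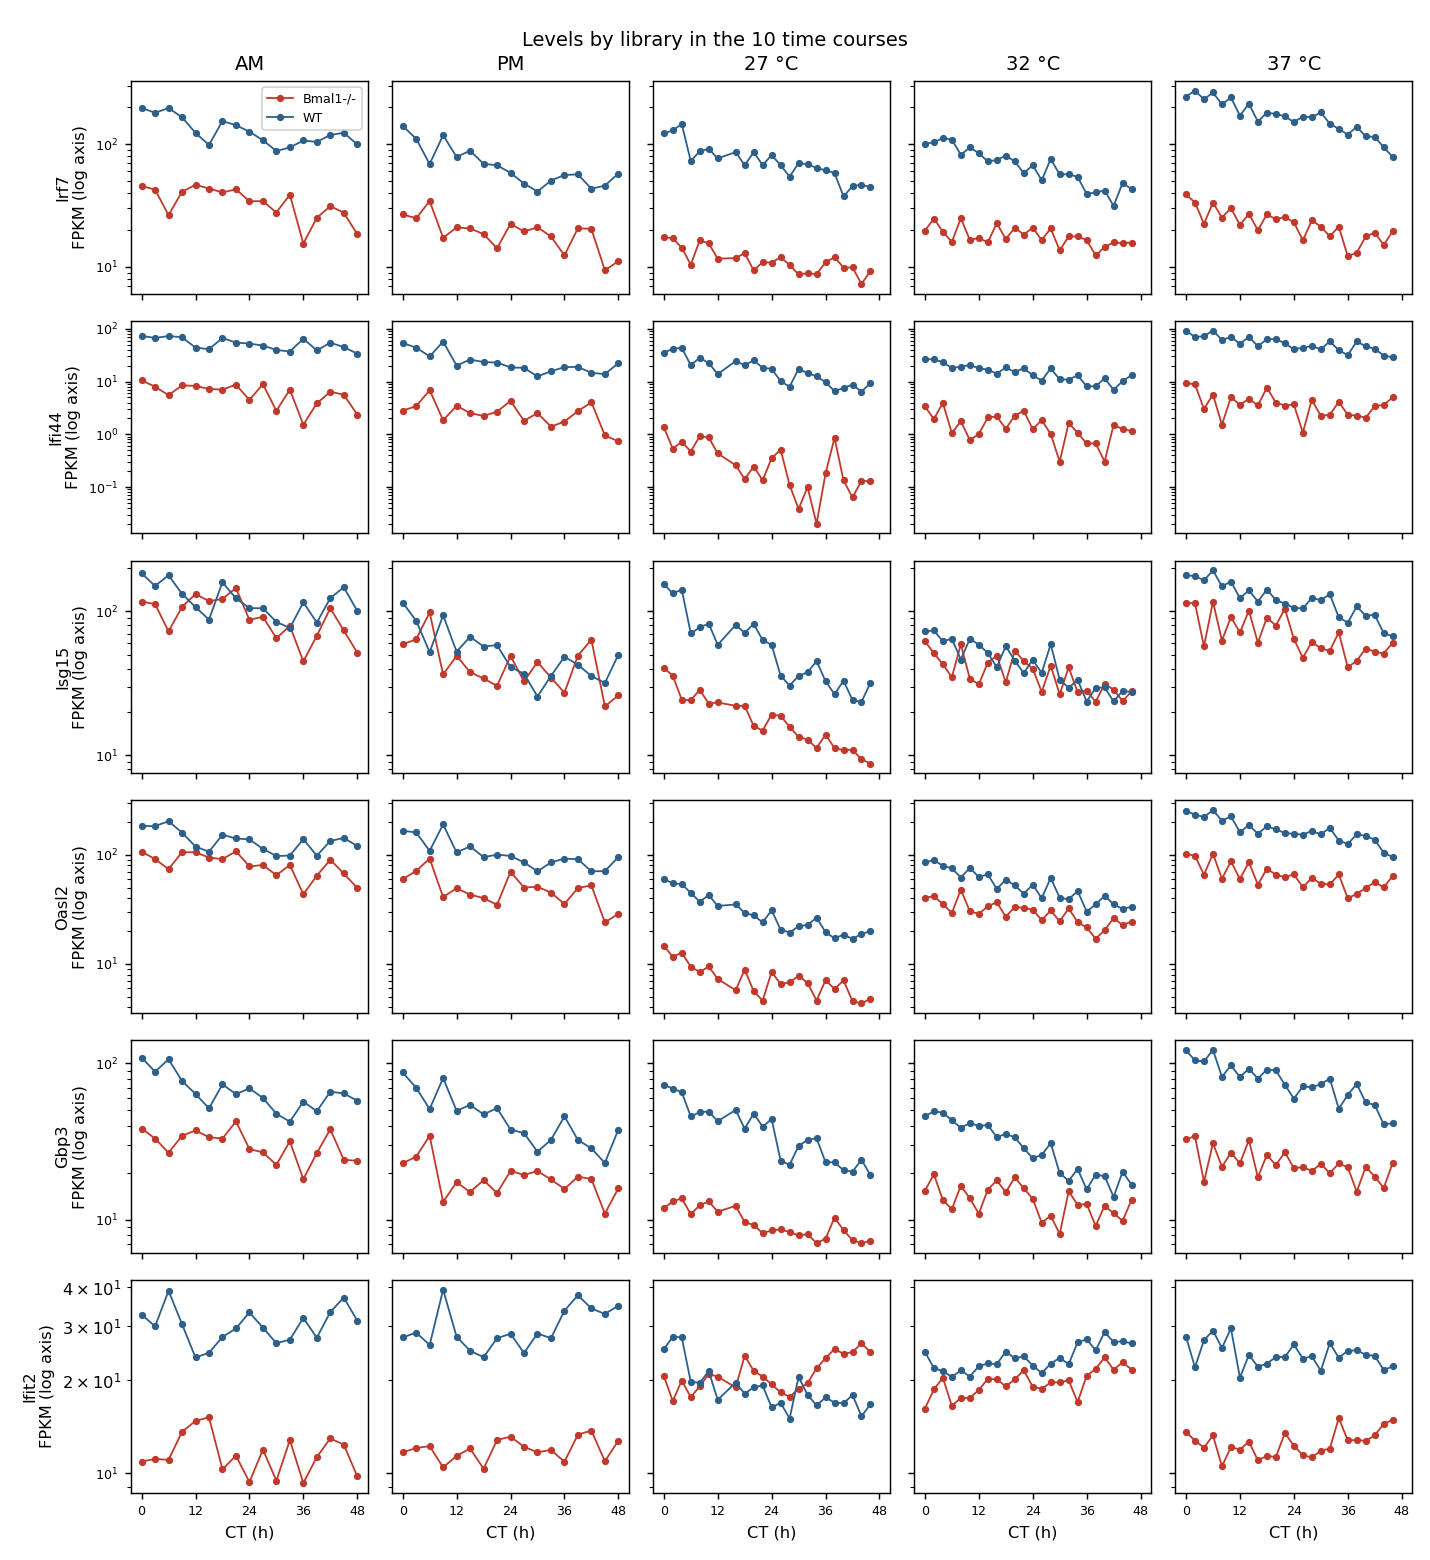
FPKM (log axis) against circadian time in hours for 6 genes chosen after their values were seen, to show different roles and patterns, in the 5 courses, with Bmal1-/- in red and WT in blue and 1 point per library. Irf7, Ifi44, Oasl2 and Gbp3 fell in WT PM and in WT at 27, 32 and 37 °C, Irf7 and Ifi44 keep the genotypes apart at every time point, and Ifit2, which was called falling in no course, overlaps between genotypes at 27 °C.

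The difference in slope between genotypes was tested directly, in a comparison added after values had been seen. Slopes were called less steep in Bmal1-/- for 19 members at 27 °C, 10 at 32 °C, 9 at 37 °C and 2 in PM, beside 2.64%, 2.21%, 3.91% and 1.64% of all genes with a higher slope. In AM no member was called in limma (2 at an unadjusted p under 0.05), beside 1.69% of all genes. No slope of a member was called steeper in Bmal1-/- in limma, while 2.02% of all genes were at 27 °C, 1.88% at 32 °C, 2.2% at 37 °C, 0.962% in PM and 1.21% in AM. Counts of members with an unadjusted p under 0.05 in either direction were 31, 23, 17 and 5 at 27, 32 and 37 °C and in PM. Those of the 28 other pathway genes were 13, 7, 12 and 5 there, and 9 in AM. At 37 °C and in PM the members thus lay near the other pathway genes. At 27 °C Mx1 differed by 1.75 ± 0.26 over 45 h (adjusted p = 7.74e-08, limma), Iigp1 by 1.47 ± 0.22 and Gbp2 by 1.29 ± 0.19. For genes whose mean lay under 1 FPKM in Bmal1-/-, such as Mx1, Oasl1 and Ifi44 at 27 °C, the added 1 FPKM flattens the Bmal1-/- slope. With 0.1 FPKM added, 14, 9 and 6 members were called at 27, 32 and 37 °C. Without CT0 to CT6 the counts were 10, 5 and 11. With the CT14 libraries included by their labels, 7 members were less steep and 1 was steeper in Bmal1-/- at 27 °C, and 7 at 32 °C and 5 at 37 °C were less steep.

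Among the other pathway genes, Dhx58 changed over 45 h by -1.74 ± 0.15 in WT at 27 °C (adjusted p = 4.19e-19, limma). Trex1, which encodes a DNase that restrains the programme, fell in WT PM and in WT at 27 and 37 °C, and Ifngr1 rose in WT at 32 °C (0.77).

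A 24 h rhythm was found in few members. The moderated F test of limma called Oas1a in WT AM (amplitude 0.32 on the log2 scale, fitted peak at CT22.1, adjusted p = 0.0389) and Ifi35 in WT at 37 °C (0.17, peak at CT5.1, adjusted p = 0.0034). In Bmal1-/- it called Ifit2 at 27 °C (0.15, peak at CT16.6, adjusted p = 0.0154) and, at 37 °C, Mx2 (0.37, peak at CT4.5, adjusted p = 0.0153) and Bst2 (0.22, peak at CT18.9, adjusted p = 0.00187). These are 1 of 37 in WT AM and WT at 37 °C, beside 3.85% and 4.92% of all genes, and 1 and 2 of 37 in Bmal1-/- at 27 and 37 °C, beside 9.85% and 8.46% of all genes. In the other 6 courses no member was called, with 5 at an unadjusted p under 0.05 in Bmal1-/- AM, 1 in Bmal1-/- PM, 6 in Bmal1-/- at 32 °C, 0 in WT PM, 4 in WT at 27 °C and 1 in WT at 32 °C. Of all genes, 3.4%, 3.02% and 2.06% were called in those Bmal1-/- courses and 5.61%, 2.15% and 0.253% in those WT courses. No member was called in more than 1 course. With 0 to 2 calls of 37 in a course, these shares are too close to those of all genes to set the members apart.

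By promoter, the 17 members with the repeated GAAA element and the 11 with a promoter but without those letters had medians side by side as follows. The median log2 difference of Bmal1-/- from WT was -0.62 with the element and -0.57 without in AM, -0.59 and -0.30 in PM, -1.29 and -0.35 at 27 °C, -0.57 and -0.18 at 32 °C, and -0.79 and -0.52 at 37 °C. The median difference of 27 °C from 37 °C in WT was -0.80 with the element and -0.73 without. Ifi44, Oasl1 and Irf7, which had the largest genotype differences, were all among the 11 without these letters in the window.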

How the data were processed

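Gene levels were measured by single-end 101-base stranded poly(A) RNA-seq. The deposited FPKM values were made by the authors with TopHat and Cuffdiff (TopHat2 2.1.0, GRCm38), per the submitters' processing notes. The files hold no counts. Library depth was taken from what 1 read was worth in FPKM over 1357 genes, and 95.3% of low values lay within 0.15 of a whole read.

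Values as log2(FPKM + 1) were fitted with limma 3.58.1 in R 4.3.3, with an intercept, a linear time term and a 24 h cosine and sine for each course. The 68 AM and PM libraries (13307 genes averaging at least 1 FPKM) and the 142 temperature libraries (13031 genes) were fitted apart, with Benjamini-Hochberg adjustment over all genes. All 37 members passed that filter in both fits. A level call needed 2-fold and a trend call 1.5-fold over 45 h.

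The members, the gene lists and the tests were chosen with earlier results of these data known. Each of the 41 other pathway symbols listed was looked up in the table, and 1 was not matched. The results of 1 pathway gene are not reported here. Members detailed per comparison were the 4 called with the largest change, and per trend the 3 with the smallest p. Alternatives were other pseudocounts, filters and scalings, either day alone, a time point block, and libraries left out or put back.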

Additional observations from a re-analysis of the deposited data

Results flagged for a closer look

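The response to temperature differed between the genotypes for 4 members by a direct test in limma. Of all genes, 0.798% were called higher for 32 °C against 37 °C. For 27 °C against 37 °C, 2.74% were called higher and 1.67% lower. With 1 member called in each direction at 27 °C, those calls do not set the members apart. For 32 °C against 37 °C the difference of the responses, Bmal1-/- minus WT, was 1.04 for Mx1 and 1.03 for Irf7 on the log2 scale. Both fell less in Bmal1-/-, where Irf7 changed by -0.30, against -1.33 in WT, and Mx1 by -0.42, against -1.46 in WT. For 27 °C against 37 °C the difference was -1.12 for Gbp2, with -1.28 in Bmal1-/- against -0.16 in WT, and 1.05 for Ifit2, with 0.70 in Bmal1-/- against -0.34 in WT. Gbp2 missed the 2-fold limit with the CT14 libraries included (-0.94) and on the second day alone (-0.97), Ifit2 on the first day alone (0.92), and Irf7 on the first day alone (0.80).

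The change with time also differed between the genotypes. Less steep falls in Bmal1-/- were called for 19 members at 27 °C, 10 at 32 °C, 9 at 37 °C and 2 in PM, the last being Mx1 and Gbp3. Of all genes, 2.64%, 2.21%, 3.91% and 1.64% were called with a higher slope in those courses.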

How the results depend on the processing

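Of the counts of members recomputed under alternatives, 323 stayed within 1.5 times the reported count and 43 did not. None of the values turned round in sign, and of the values of named genes 591 kept their side of the threshold and 18 did not. Leaving out CT0 to CT6, and every alternative for 27 °C against 32 °C, for the 32 °C difference of responses and for the slope differences, was chosen after seeing the data. The time point block (replicate block), in which libraries of the same CT share a term, gave 19 lower at 27 °C and 11 at 37 °C between genotypes and changed no other count by over 1.5 times; a time point number does not show shared cultures.

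With a pseudocount of 0.1 FPKM the genotype count at 32 °C was 10 (8 lower, 2 higher), PM against AM in Bmal1-/- 6, 32 °C against 37 °C in Bmal1-/- 10, 27 °C against 32 °C in Bmal1-/- 8, the difference of responses 4 at 32 °C and 7 at 27 °C, rhythm in Bmal1-/- at 27 °C 2, and the slope difference in PM 1. With 0.5 FPKM the same comparisons of PM, 32 °C and 27 °C against 32 °C in Bmal1-/- gave 5, 7 and 7, and that rhythm 2. Median-of-ratios scaling gave 4 for PM against AM and 9 for 32 °C against 37 °C in Bmal1-/-. Without a filter on low values, rhythm in WT AM was 0 and the slope difference in PM 1.

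On the first day alone PM against AM gave 5 in Bmal1-/- and 0 in WT, and the differences of responses 1 at 32 °C and 4 at 27 °C. On the second day alone the genotype count in PM was 7, PM against AM in Bmal1-/- 0, and each difference of responses 1. Without the library under 10 M reads, PM against AM in WT was 2 and rhythm in WT AM 0.

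Without CT0 to CT6, trends numbered 0 in Bmal1-/- PM, 1 in WT AM and 5 in WT PM. Slope differences then numbered 1 in AM (steeper in Bmal1-/-), 1 in PM, 10 at 27 °C and 5 at 32 °C, PM against AM in Bmal1-/- was 4, and rhythm was 0 in WT AM and 2 each in Bmal1-/- at 27 °C and WT at 37 °C. With the CT14 libraries included by their labels, the difference of responses at 27 °C was 1, slope differences were 8 at 27 °C and 5 at 37 °C, and rhythm was 2 in Bmal1-/- at 27 °C, 4 in WT at 27 °C and 1 in Bmal1-/- at 37 °C. The cause of these changes was not tested.

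Depth limits the genes near 0: 1 read of Ifnb1 is a large step, and the added pseudocount understates differences of members under 1 FPKM, such as Mx1 and Oasl1 in Bmal1-/-. With 1 culture course per genotype and temperature, course effects cannot be told apart from temperature.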
